A study of Mus musculus with 2 samples.

Results

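The genes described here encode the protein factors that start and extend translation on cytosolic ribosomes, and the measurement is how far their gene regions were occupied by YY1, a DNA-binding zinc finger protein that can raise or lower the expression of its targets. Members were the protein-coding genes of the RefSeq table for GRCm38.p6 (the assembly that mm10 names) whose symbol starts with Eif or Eef and a number, leaving out Eif5a and Eif5a2. This gave 69 of 21887 protein-coding genes, 54 of them eIF genes of initiation and 15 eEF genes of elongation, regulators and modifying enzymes included. Genes were placed by symbol and not by what is known of each product. A gene was counted as having a peak when the summit of a listed YY1 peak lay inside the gene or within 1 kb of either gene end.

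The libraries were made by CUT&Tag (the labels also call them ChIP-seq) from mature adipocytes freed by collagenase from the inguinal, subcutaneous fat of male wild-type C57 mice aged 8 to 10 weeks. In this assay a transposase bound to the antibody tags DNA next to the protein in native nuclei, and open chromatin is also tagged as background. One group was labelled as housed at room temperature and the other as exposed to cold stress for 7 days, with 1 library each. No difference between them therefore has a replicate check, and no p-value is given. The room temperature list held 165 peaks and the cold list 1259. Each entry is 1 summit and is counted here as 1 peak. A region can be entered more than once with different summits, as those at Akt1s1 and Atf4 were after cold. Names of room temperature peaks contain a 30 and names of cold peaks a 4. The sources used here do not explain these numbers, and the groups follow the labels. If they were housing temperatures in °C, each value called room temperature here would come from mice kept warmer than that. None of the 8 adipocyte markers looked up (Adipoq, Plin1, Fabp4, Pparg, Cidec, Lpl, Lipe and Lep) had a peak in either library. Occupancy does not measure expression, so this neither checks nor contradicts the labelled cell type. Of 10 markers of macrophages, endothelium and preadipocytes or fibroblasts, only the endothelial gene Pecam1 had a peak, after cold.

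Translation begins when eIF2 brings the initiator tRNA to the small ribosomal subunit, with eIF1, eIF1A, eIF3 and eIF5 bound to the same complex, and eIF2B recharges eIF2 with GTP for the next round. The eIF4 factors recognise the mRNA cap, unwind the leader and bridge the mRNA to eIF3. Elongation is then driven by eEF1A, which delivers aminoacyl-tRNA, by eEF1B, which recharges eEF1A, and by eEF2, which moves the ribosome along the mRNA. The main control points are the kinases that phosphorylate eIF2, the 4E-binding proteins that block the cap-binding factor eIF4E, and the kinase of eEF2.

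After cold, 17 of the 69 genes had a YY1 peak (24.6%, exact 95% interval 15.1 to 36.5), where 6.42% of all protein-coding genes did. At room temperature 1 of the 69 had a peak (1.45%, 0.0367 to 7.81), where 0.864% of all protein-coding genes did. The cold share lies above that of all genes. The room temperature interval is too wide to tell whether the share there does too. The genes were chosen with earlier results of these data known, and the intervals treat genes of 1 library as independent. These shares therefore describe these genes only. List length, 165 peaks at room temperature and 1259 after cold, limits the contrast. With only the 165 strongest cold peaks, 2 of the 69 genes had a peak (2.9%, 0.353 to 10.1), where 0.905% of all protein-coding genes did. The comparison with all genes takes no account of expression, which these files do not measure, so whether genes active in adipocytes in general have such a share was not tested. The 17 genes were reached by 16 distinct peaks, because Eef1akmt4 and the readthrough gene Eef1akmt4-ece2 start at the same place and share 1 peak. Of the eIF genes 12 of 54 had a cold peak (22.2%, 12 to 35.6), and of the eEF genes 5 of 15 (33.3%, 11.8 to 61.6). The eEF interval counts this pair as 2 genes, and the 5 eEF genes had 4 distinct peaks. These intervals overlap widely, and a difference between initiation and elongation was not tested.

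The eIF4 group carried the most peaks. Of its 13 genes for cap binding, scaffold and helicase proteins, 5 had a cold peak (38.5%, 13.9 to 68.4). The highest pileup, which is the number of fragments over the summit, was found at Eif4g2, which encodes a scaffold related to eIF4G that lacks the binding site for eIF4E. Its peak (chr7:111082494-111082999) carried 86 fragments after cold (exact Poisson 95% interval 68.8 to 106), with the summit 291 bp inside the gene from its nearer end. Next was Eif4a1, the main eIF4A helicase gene, with 26 fragments (17 to 38.1; chr11:69672465-69672741) at a summit 172 bp outside the gene. Eif4b, whose product stimulates that helicase, carried 25 fragments (16.2 to 36.9; chr15:102073884-102074165) at a summit 267 bp inside the gene. Eif4g3, a further eIF4G scaffold gene, carried 20 fragments (12.2 to 30.9; chr4:137993398-137993712). Eif4h, whose product resembles eIF4B, carried 19 fragments (11.4 to 29.7; chr5:134639070-134639374). Apart from Eif4g2, the intervals of these genes overlap and give no order among them.

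Related genes of the eIF4 group differed in whether they were listed. Eif4g2 and Eif4g3 had a cold peak and Eif4g1, the major scaffold gene, did not. Its nearest cold summit lay 62 kb away. Eif4a1 had a peak, while Eif4a2, Eif4a3, which encodes a core protein of the exon junction complex, and Eif4a3l1 had none. The cap-binding genes Eif4e, Eif4e1b, Eif4e2 and Eif4e3 were without a peak, as were the genes for the inhibitors that bind eIF4E, namely Eif4ebp1, Eif4ebp2, Eif4ebp3 and Eif4enif1. For the 4 genes of this inhibitor group the interval reaches 60.2%, so their 0 does not show avoidance.

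In eIF3, the large scaffold of the initiation complex, 4 of 14 genes had a cold peak (28.6%, 8.39 to 58.1). Eif3e carried 37 fragments (26.1 to 51; chr15:43282240-43282772), the second highest pileup among the translation factor genes, at a summit 128 bp inside the gene. Eif3f carried 19 fragments (11.4 to 29.7; chr7:108934283-108934625) at a summit 17 bp inside the gene. Eif3h carried 13 (6.92 to 22.2; chr15:51865218-51865557) at 94 bp inside. Eif3i, which encodes a propeller-shaped subunit, carried 10 (4.8 to 18.4; chr4:129600668-129600937), the lowest pileup among the translation factor genes, at 138 bp outside the gene. Eif3e, Eif3f and Eif3h belong to the 8 subunits with PCI or MPN domains that form the core of the mammalian complex, of which the other 5 (Eif3a, Eif3c, Eif3k, Eif3l and Eif3m) were without a peak. Eif3b, Eif3d, Eif3g, Eif3j1 and Eif3j2 had none either. Binding was thus listed at genes of some subunits and not of others within 1 complex.

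Each set of genes for loading the initiator tRNA or recharging eIF2 had 1 gene with a peak, at 14 to 23 fragments. Among the 4 genes of eIF2 subunits, the Y-linked gamma subunit gene Eif2s3y had a cold peak with 14 fragments (7.65 to 23.5; chrY:1010375-1010647), and its X-linked counterpart Eif2s3x, Eif2s1 and Eif2s2 had none. The X and Y copies are close relatives, and the sources used here do not state how fragments that fit several places were handled. Among the 5 eIF2B genes, Eif2b4, the delta subunit gene, had 15 fragments (8.4 to 24.7; chr5:31192816-31193530), in the widest of the peaks at translation factor genes, at 715 bp. Eif2a, which encodes a factor distinct from eIF2 that can also bring initiator tRNA, carried 23 fragments (14.6 to 34.5; chr3:58525975-58526463), while Eif2d, with a related role, had no peak. The 4 eIF2 kinase genes Eif2ak1 to Eif2ak4 had none, and neither did the 5 genes of eIF1 and eIF1A type, nor Eif5, Eif5b or Eif6. The intervals of these small groups reach 52.2% or more, where 6.42% of all protein-coding genes had a cold peak. Their 0 does not show avoidance.

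Of the 7 genes with an eEF1 or eEF2 symbol other than modifying enzymes, 3 had a cold peak (42.9%, 9.9 to 81.6), where 6.42% of all protein-coding genes did. Eef1a1, which encodes the widely expressed form of eEF1A, carried 33 fragments (22.7 to 46.3; chr9:78480788-78481303), with the summit 658 bp downstream of the annotated start. Many processed copies of this gene exist in the genome, which makes its mapping uncertain in the same way as for Eif2s3y. Eef1b2, an exchange factor subunit gene, carried 18 fragments (10.7 to 28.4; chr1:63176475-63176791). Eef2, the translocase gene, carried 11 (5.49 to 19.7; chr10:81176680-81176932). The muscle and neuron form Eef1a2 was without a peak, as were Eef1d, Eef1e1 and Eef1g, which were placed here by symbol. Of the 8 genes for regulators and modifying enzymes, Eef1akmt4, a lysine methyltransferase gene, and its readthrough shared a peak of 25 fragments (16.2 to 36.9; chr16:20610495-20610867). The summit lay 890 bp upstream of their start. This summit lay 50 bp from an end of the glycosylation gene Alg3 and counts for the translation factor genes only through the 1 kb window. The eEF2 kinase gene Eef2k had none.

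**Figure D1:**
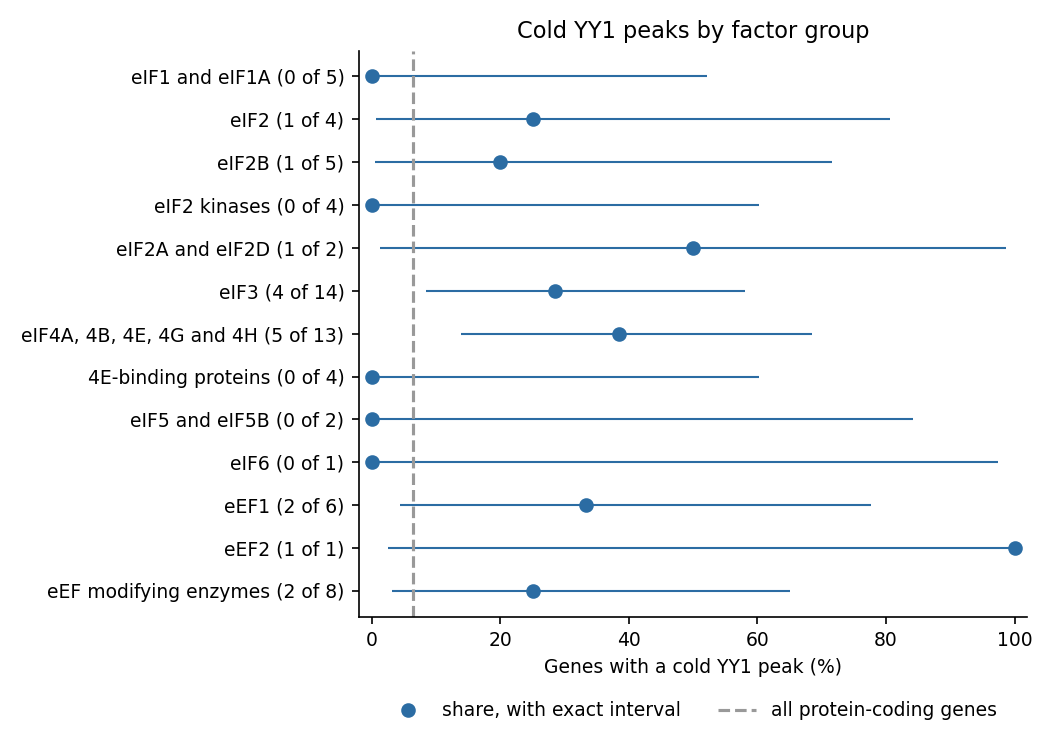
Share of genes with a cold YY1 peak (x axis, percent) in each group of translation factor genes (y axis, with counts). Points are shares, lines are exact 95% intervals and the dashed line is the 6.42% of all protein-coding genes. The intervals of eIF3 (8.39 to 58.1) and of the eIF4 group (13.9 to 68.4) lie wholly above the line. All other groups have wide intervals that include the line. The eIF3 interval counts Eif3i, whose summit lay nearer to an end of Tmem234 (117 bp) than to Eif3i (138 bp). Eif3i had no peak when each summit was given only to its nearest gene end, and no interval without Eif3i was computed. The intervals treat genes as independent and make no allowance for the number of groups shown. No group was tested against the line.

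The peaks at translation factor genes were of ordinary strength within the cold list. The 16 distinct peaks had a median of 19.5 fragments (quartiles 14.8 and 25.2), against 20 (15 and 29) for all cold peaks. Their fold enrichment as deposited by the authors had a median of 10 against 10.5 in the whole list. Their median width was 328.5 bp (the whole list had 366 bp). Of the 16, 7 lay above the list's median pileup and 3, those at Eif4g2, Eif3e and Eef1a1, at or above its upper quartile. With only the 165 strongest cold peaks, as many as the room temperature list holds, 2 of the 69 genes (Eif4g2 and Eif3e) had a peak, where 0.905% of all protein-coding genes did. Eif4g2 ranked 31 of 1259 by the deposited −log10 q, Eif3e 159 and Eef1a1 199. At the other end Eif3i ranked 1133 and Eef2 1142. The local background behind these pileups was 0.658 to 2.65 fragments, with the highest values at Eif4b (2.65) and at Eif4a1 and Eif4g2 (1.99 each).

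**Figure D2:**
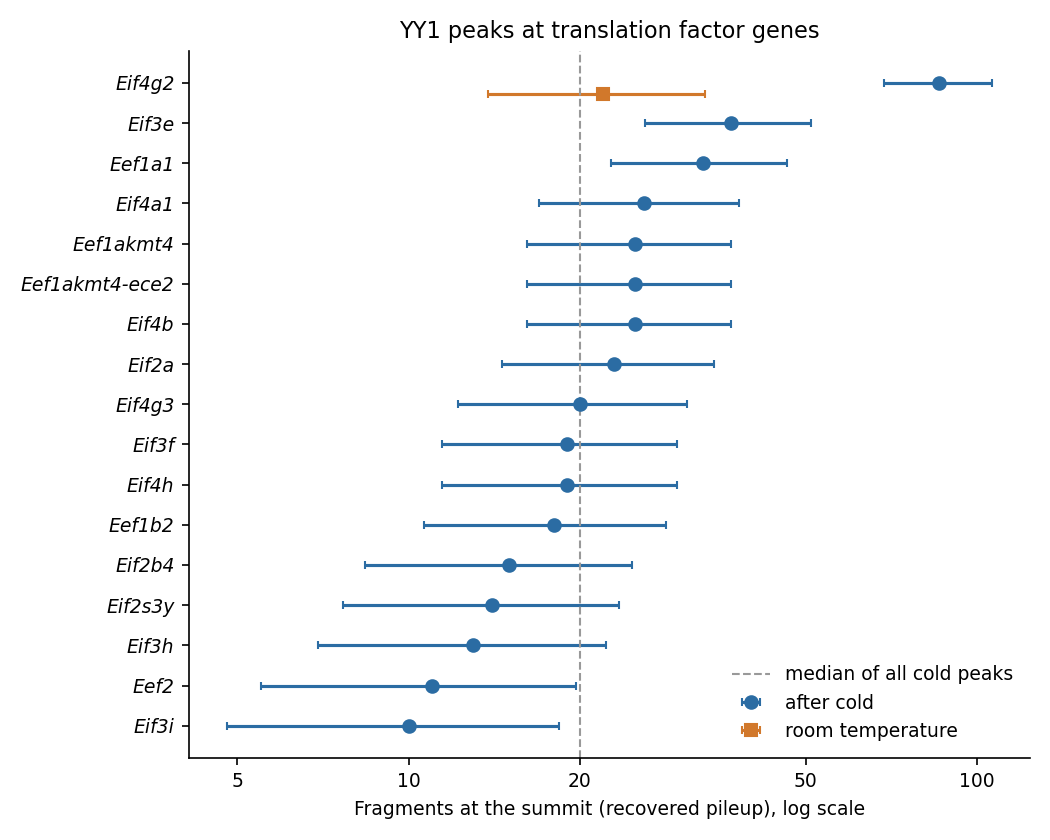
Fragments at the peak summit (x axis, log scale) for each translation factor gene with a YY1 peak (y axis). Circles are the cold library and the square is the room temperature library, with exact 95% Poisson intervals for counting error only. Eif4g2 stands at 86 fragments after cold and 22 at room temperature, and most other genes lie near the dashed line at 20 fragments, the median of all cold peaks.

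The comparison of cold with room temperature rests on Eif4g2, which was the only translation factor gene in both lists, where 0.85% of all protein-coding genes were. Its room temperature peak (chr7:111082537-111082889) carried 22 fragments (13.8 to 33.3) and lay within the cold peak, with summits 27 bp apart. It ranked 8 of 165 in the room temperature list. The cold pileup of 86 was 3.91 times as high (exact interval for counting error 2.42 to 6.56), and 3.73 times after division by the depth ratio of 1.05 between the libraries. By the deposited fold enrichments, which divide by a local background that was higher after cold (1.99 against 0.624 fragments), the ratio was 2.05. For orientation, the 163 cold peaks that overlap a room temperature peak, with backgrounds of at most 10 fragments, had a median pileup ratio of 3.09 (quartiles 2.5 and 3.98). The ratio at Eif4g2 lies within that range.

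The other 16 genes were listed after cold only. A gene missing from the room temperature list has no value there, and its occupancy may lie just under the listing threshold. Whether a cold peak was also listed at room temperature moved with its strength. Of the 15 cold peaks with at least 86 fragments 14 were listed at room temperature (93.3%, 68.1 to 99.8), Eif4g2 among them. Of the 173 cold peaks with 37 to 85 fragments, the range that holds Eif3e, 82 were listed (47.4%, 39.8 to 55.1). The ranges were cut at the pileups of Eif3e (37) and Eif4g2 (86), so each stands at the lower edge of its range. Their shares thus describe peaks at least as strong as these genes. A share for peaks of just their strength was not computed. Of the 483 with 20 to 36 fragments 53 were listed (11%, 8.33 to 14.1), and of the 588 weaker ones 15 (2.55%, 1.43 to 4.17). These ranges contain 6 and 8 of the peaks at translation factor genes. The missing room temperature entries of these 14 peaks are what most cold peaks of that strength show.

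**Figure D3:**
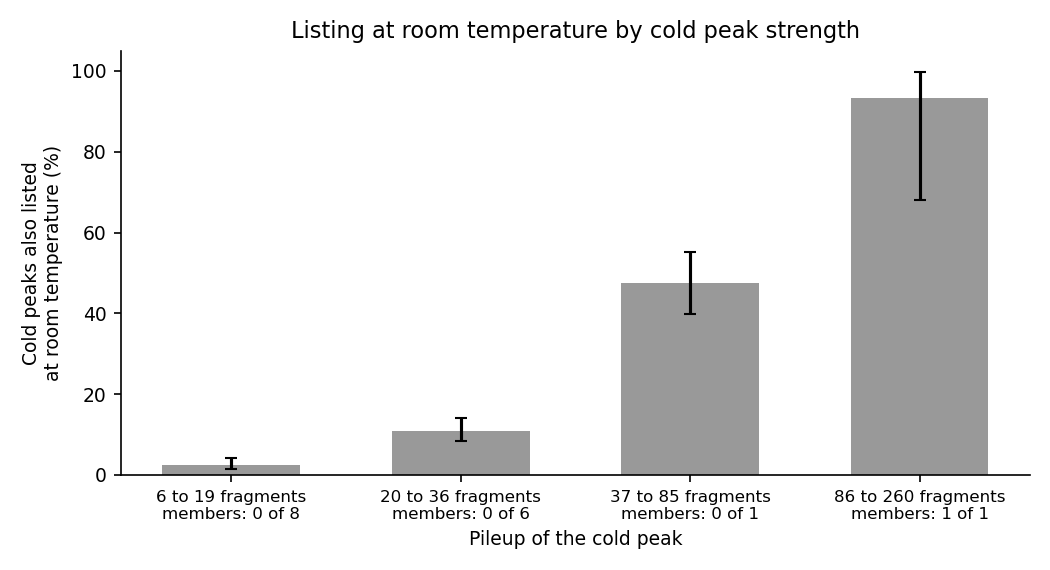
Percent of all cold YY1 peaks that overlap a room temperature peak (y axis) in 4 ranges of cold pileup (x axis), with exact 95% intervals. The ranges were set by the pileups of Eif4g2 and Eif3e and by the list median, so each of these genes stands at the lower edge of its range. The share climbs from 2.55% to 93.3%, and the labels give how many peaks at translation factor genes were listed at room temperature in each range.

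The summits clustered near gene ends. For 16 of the 17 genes (94.1%) the cold summit lay within 1 kb of a gene end, near the 87.8% found over every gene that had a cold peak (1234 of 1406). Over all 69 genes this was 23.2%, where 5.64% of all protein-coding genes had a summit at an end. The exception, Eif4g3, had its summit 1762 bp from the outer end but 85 bp downstream of an annotated start. In 11 genes the summit lay inside the gene and in 6 outside, and the median distance to the nearer end was 212 bp. A RefSeq promoter with strand was at hand for 13 of the 17 genes. In 8 of these the summit lay downstream of the start and in 5 upstream, with a median of 85 bp downstream, and 9 lay within 300 bp of it. Of all 943 cold summits within 1 kb of an annotated start, 71.8% lay downstream, with a median of 65 bp. Eif3e, Eif3h, Eif3i and Eif4g2 had no promoter entry.

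Several peaks stood between neighbouring genes and cannot be given to a single gene. Of the 16 peaks 6 reached a further protein-coding gene (37.5%, 15.2 to 64.6), where 24.3% of all cold summits that reach any gene reached at least 2. In this count the pair of Eef1akmt4 and its readthrough, with Alg3, is 1 peak. The Eif2b4 summit lay 143 bp from the end of that gene and 266 bp from an end of Snx17, a sorting nexin gene. The Eif4a1 summit lay 172 bp from that gene and 515 bp from an end of the SUMO protease gene Senp3. At Eef1b2, Eif2a and Eif3i the neighbour was the nearer gene. The Eef1b2 summit lay 215 bp from that gene and 206 bp from an end of Ndufs1, a complex I subunit gene of the respiratory chain. The Eif2a summit lay 301 bp from the gene's end and 238 bp from an end of Serp1, which encodes a stress-associated protein of the endoplasmic reticulum. The Eif3i summit lay 138 bp from that gene and 117 bp from an end of Tmem234. With each summit given only to its nearest protein-coding gene end, 12 of the 69 genes kept a peak (17.4%, 9.32 to 28.4), where 5.46% of all protein-coding genes had one.

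YY1 is known to recognise DNA with the core ATGGC preceded by AA and a variable base. The motif AANATGGC (N is any base) was searched on both strands in the RefSeq promoters, 250 bases before to 50 after each annotated start, which cover 53 of the 69 genes. Of the 13 genes with a cold peak and a promoter entry, 6 held the motif (46.2%, 19.2 to 74.9), against 5 of 40 without a peak (12.5%, 4.19 to 26.8). In promoter entries this was 7 of 14 (50%). Among all genes with a promoter entry, 45.5% of those with a cold peak held it, 4.74% of those without, and 7.46% in all (6.37% of all promoter entries). Translation factor genes with a peak thus held the motif about as often as other genes with a peak, and their few promoters leave a wide interval. A match is a description of the letters and not a site.

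**Figure D4:**
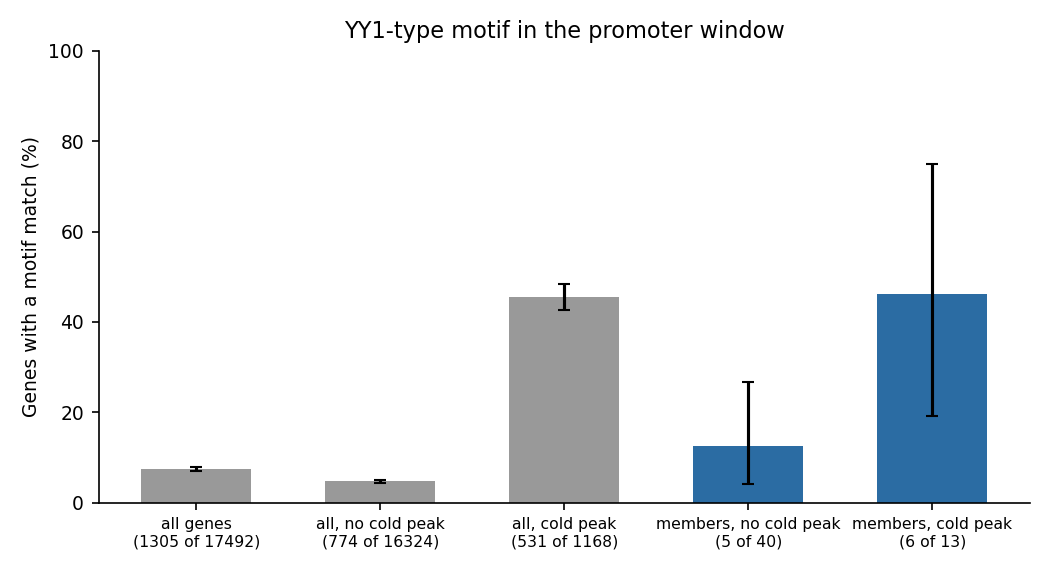
Percent of genes with at least 1 match to AANATGGC in a promoter window (y axis), with exact 95% intervals. Grey bars are all protein-coding genes with a RefSeq promoter and blue bars the translation factor genes. Genes with a cold peak stand at 45.5% (all) and 46.2% (translation factors), genes without at 4.74% and 12.5%.

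The 6 peak-bearing promoters with a match are shown first, because the place of the match relative to the summit differs among them. Each line gives the gene's own strand from 5′ to 3′ (RefSeq, GRCm38.p6), with the 8 matched bases in capitals and up to 40 bases on each side inside the promoter window.
Eif3f: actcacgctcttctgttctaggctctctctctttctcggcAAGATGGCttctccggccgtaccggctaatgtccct
Eif4a1: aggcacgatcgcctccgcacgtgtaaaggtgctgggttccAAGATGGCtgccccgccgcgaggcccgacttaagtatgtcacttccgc
Eif2s3y: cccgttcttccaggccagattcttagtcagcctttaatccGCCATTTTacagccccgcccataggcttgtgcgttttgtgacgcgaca
Eif4g3: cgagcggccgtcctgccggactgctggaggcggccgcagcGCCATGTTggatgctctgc
Eef1b2: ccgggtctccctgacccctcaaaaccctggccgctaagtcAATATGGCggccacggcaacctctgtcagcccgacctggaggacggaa
Eif2b4: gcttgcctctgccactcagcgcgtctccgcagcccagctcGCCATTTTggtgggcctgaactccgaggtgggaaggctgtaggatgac

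In Eif3f (chr7:108934389-108934464, plus strand) the match began 14 bases downstream of the start, and the cold summit lay 0.5 bp from the centre of the match. In Eif2s3y (chrY:1010492-1010579, plus strand) the match shown is on the opposite strand, began 63 bases upstream of the start and had its centre 6.5 bp from the summit. A further match in this promoter began 19 bases downstream of the start, 75.5 bp from the summit. In Eif4a1 (chr11:69672542-69672629, minus strand) the match began 166 bases upstream and its centre was 9.5 bp from the summit. In these 3 promoters the summit fell within 10 bp of a match. The distance was 50.5 bp in Eif4g3 (chr4:137993447-137993505, plus strand) and 52.5 bp in Eef1b2 (chr1:63176625-63176712, plus strand). In Eif2b4 (chr5:31193266-31193353, minus strand) it was 313.5 bp, so the match there was not under the summit. Over all 604 matches in promoters with a cold summit within 300 bp of the start, the median distance was 41.5 bp, and 59.9% lay within 50 bp. The pileups at Eif3f, Eif4a1 and Eif2s3y were 19, 26 and 14 fragments, with overlapping intervals.

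**Figure D5:**
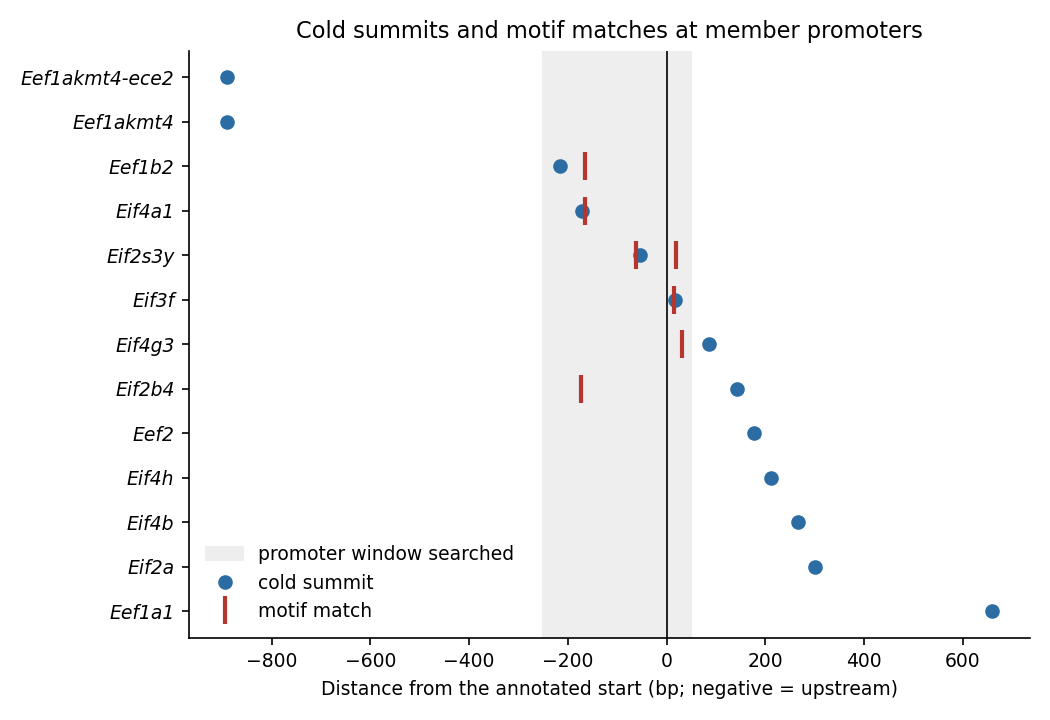
Position of the cold summit (circles) and of matches to AANATGGC (red ticks, first base) relative to the annotated start (x axis, bp), for the 13 translation factor genes with a cold peak and a RefSeq promoter. The grey band is the window searched, so a site outside it would not be seen. Summit and match nearly coincide at Eif3f, Eif4a1 and Eif2s3y, and the summits of Eif4g3, Eif2b4, Eef2, Eif4h, Eif4b, Eif2a, Eef1a1 and the Eef1akmt4 pair lie outside the band.

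A match did not always go with a listed peak. The next 3 promoters hold the motif downstream of the start, much as Eif3f does, and their genes had no peak in either library.
Eif2s3x: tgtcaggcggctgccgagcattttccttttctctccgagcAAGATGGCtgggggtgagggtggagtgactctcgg
Eif4e: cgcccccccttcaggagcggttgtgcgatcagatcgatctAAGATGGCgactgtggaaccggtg
Eef1e1: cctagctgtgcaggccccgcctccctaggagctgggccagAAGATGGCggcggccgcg

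The match began 15 bases downstream of the start in Eif2s3x (chrX:94212602-94212676, minus strand), 26 in Eif4e (chr3:138527254-138527317, plus strand) and 32 in Eef1e1 (chr13:38658979-38659036, minus strand). The nearest cold summit lay 66.2 kb from Eif2s3x, 4982 kb from Eif4e and 10.5 kb from Eef1e1. Eif1b and Eif2s2 were the other genes with a match and no peak. Across all genes with a promoter entry, 531 of the 1305 that hold the motif had a cold peak (40.7%, 38 to 43.4), against 6 of 11 among the translation factor genes (54.5%, 23.4 to 83.3). Without the motif 3.94% of all genes had a cold peak, and 7 of 42 translation factor genes did (16.7%, 6.97 to 31.4). These 7 genes were Eef1a1, Eef2, Eif2a, Eif4b, Eif4h, Eef1akmt4 and its readthrough. In them the summit lay 177 bp or more from the start, outside the window searched. Tagging of open chromatin was not told apart from YY1 binding, and its part in these peaks was not tested.

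The wider pathway was described by 36 further genes of termination, recycling, mitochondrial translation and signalling to the initiation factors. Of these, 8 had a cold peak (22.2%, 10.1 to 39.2), where 6.42% of all protein-coding genes did. At room temperature 1 had a peak (2.78%, 0.0703 to 14.5), where 0.864% of all protein-coding genes did. The list was chosen with earlier results of these data known, so its shares describe these genes only. In the mTOR pathway, which sets the activity of eIF4E-binding proteins and of eEF2 kinase, Akt1s1 carried 81 fragments after cold (64.3 to 101) and 15 at room temperature (8.4 to 24.7), at a peak shared with Tbc1d17. The subunit gene Rptor had 21 fragments (13 to 32.1). Mtor was also reached by a peak of 21 fragments, whose summit lay 825 bp outside the gene and 91 bp from an end of Exosc10. The S6 kinase gene Rps6kb2 had 12 fragments (6.2 to 21), with the summit 10 bp outside the gene and 931 bp from an end of Carns1. Among genes of the response to eIF2 phosphorylation, Ppp1r15b, a phosphatase subunit gene that reverses it, had 33 fragments (22.7 to 46.3), and the transcription factor gene Atf4 had 17 (9.9 to 27.2) at the stronger of its summits. The recycling factor gene Abce1 had 21 fragments, at a peak shared with Anapc10, and the ribosome rescue gene Hbs1l had 13. The genes of the eIF4E kinases, Mknk1 and Mknk2, had no peak. From the signalling and eIF2 response genes looked up, Mlst8, Rps6kb1, Pdcd4, Larp1, Ddit3, Ppp1r15a and Gcn1 were also without a peak. The same held for Pelo, Pabpc1, Pabpc4, Paip1, Paip2, Denr and Mcts1. None of the mitochondrial factor genes Tufm, Tsfm, Gfm1, Gfm2, Mtif2, Mtif3, Mtrf1, Mtrf1l and Mrrf had a peak, nor did the termination genes Etf1, Gspt1 and Gspt2. So few genes cannot show avoidance.

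The 52 translation factor genes without a cold peak were not near misses of the window. Their nearest cold summit lay 6 kb (Eef1akmt2) to 4982 kb (Eif4e) from the gene, with a median of 197.5 kb. Widening the window from 1 kb to 3 kb left the count at 17, where 6.89% of all protein-coding genes had a summit in reach.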

How the data were processed

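YY1 CUT&Tag libraries of adipocytes from room temperature and cold mice, 1 each, were analysed from 1 deposited peak list per library. The submitters' processing notes name mm10 and the tools MACS2, BWA, SAMtools, DESeq2 and deepTools. The sources used here state no versions, settings or control. The authors deposited for each peak a score (10 times the −log10 p, cut to a whole number), a fold enrichment at the summit (a linear ratio), a −log10 p-value and a −log10 q-value.

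Pileups were recovered as the whole number that satisfies fold = (pileup + 1) / (background + 1) and the Poisson p. All entries were met to within 0.0002 in −log10 p, with a second solution at 1 cold peak. Depth is unknown in absolute terms. The depth ratio of 1.05 divides the lowest background by the smallest peak width in each list. Intervals are exact 95% Poisson or Clopper-Pearson intervals and cover counting error only. Ratios have an exact conditional binomial interval. Peaks were shared when their regions overlapped by at least 1 bp, so all summits of a region counted as shared together. The gene table gives no exons. Python 3.11.15, scipy 1.17.1 and pandas 2.3.3 were used, and the steps were tested on simulated data. Genes, lists and the motif were chosen with earlier results of these data known. Named were all translation factor and pathway genes with a peak, and neighbours that share one. Alternatives covered the window, gene assignment, peak threshold, scaling, overlap and motif. No set test was run.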

Additional observations from a re-analysis of the deposited data

How the results depend on the processing

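With 1 library per condition no library could be left out, and no paired analysis was possible because there is only 1 library per condition. The number of translation factor genes with a cold peak (17) was 12 to 17 under every other window, assignment and threshold tried, and 16 with each peak counted once, an alternative chosen after seeing the data. It was 2 (Eif4g2 and Eif3e), where 0.905% of all genes had a peak, with only the 165 strongest cold peaks. The room temperature count of 1 became 0 within 1 kb of an annotated start, since Eif4g2 has no promoter entry. The pileup ratio at Eif4g2 (3.91) was 2.05 by fold enrichment. The share of peak-bearing promoters with the motif (50%) fell to 7.14% (1 of 14, 0.181 to 33.9) with the stricter motif AAGATGGCG. For promoters of all genes with a cold peak it was 16.7%, inside that interval. Of 49 promoters of translation factor genes without a peak, 2 held the stricter motif (4.08%, 0.498 to 14), against 0.737% for all genes without a peak. The share of peak-bearing promoters was 71.4% with ATGGC (64.1% for promoters of all genes with a cold peak). With AANATGGC and summits within 300 bp of the start it was 70% (7 of 10, 34.8 to 93.3), against 55.9% for all such promoters. Eif4g3 enters both the 50% and the 70% through 2 promoter entries with the same match. By gene these shares were 6 of 13 (46.2%) and 6 of 9 (66.7%). Median pileups (20 over genes) moved by at most 1 fragment.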

Other observations

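Several translation factor genes contain small nucleolar RNA (snoRNA) genes, which guide chemical modification of ribosomal RNA and are often released from introns of their hosts. In RefSeq, 9 of the 69 genes enclose at least 1 snoRNA gene. Of these, 4 had a cold YY1 peak, namely Eef1b2, Eef2, Eif4a1 and Eif4g2 (44.4%, 13.7 to 78.8), and Eif2ak3, Eif3a, Eif4a2, Eif4g1 and Eif5 had none. Of the 60 genes without an enclosed snoRNA gene 13 had a peak (21.7%, 12.1 to 34.2). Among all protein-coding genes the shares were 58 of 372 (15.6%, 12.1 to 19.7) with and 6.27% without. For the translation factor genes the intervals overlap, and the grouping was chosen after the data were examined.

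Promoters of translation factor genes were richer in G and C than the average. The median was 64.7% over the 14 promoters of genes with a cold peak and 60.7% over the 49 of genes without, against 60.2% for all genes with a cold peak and 56.3% for all promoters. The median gene length was 15046 bp for the 17 genes with a peak and 16351 bp for the 52 without, against 22885 bp for all genes with a cold peak and 17169 bp for all protein-coding genes.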
